A study of Mus musculus with 2 samples.

Results

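The genes for the proteins of the cytosolic ribosome were examined in mammary basal cells after macrophage depletion. Members were the rows of the deposited count table whose symbol was Rpl or Rps with a number and at most 1 of the letters a, l, x or y, or was Rplp0, Rplp1, Rplp2 or Rpsa. The rule used names only and found 82 of the 49492 genes in the table, 50 of the large subunit (Rpl and Rplp) and 32 of the small subunit (Rps and Rpsa). The study removed macrophages from adult wild-type female mice with clodronate liposomes (CL), lipid vesicles that kill the macrophages that ingest them. Basal cells, the contractile cells on the outside of the mammary ducts, were sorted by surface markers (lin-CD24+CD29hi) and their RNA was sequenced. The CL basal library came from CL treated wild-type mice and the Ctrl basal library from wild-type controls, which the sample label gives as untreated and the series description as given saline. Both libraries were labelled day 7. Each group had 1 library, and whether a library pooled several mice is not given in the sources used here, so nothing here was checked against replicates and no p-value is given.

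The cytosolic ribosome is built from ribosomal RNA and 1 copy of most of these proteins, except for the acidic stalk proteins, which are present in several copies. The small subunit decodes the mRNA, and the large subunit joins the amino acids. Ribosomal protein mRNAs carry a tract of pyrimidines (C and T) at their 5′ end, the TOP motif, through which the mTORC1 kinase pathway sets their translation. Their abundance in a tissue is commonly taken as one sign of its capacity for growth. The comparison asks whether the mRNAs of the ribosome differed between basal cells of macrophage-depleted and control mice, and whether the subunits differed from each other.

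Depth was nearly equal, with 38962512 counts over exons in CL basal against 37846008 in Ctrl basal. Of the 82 members, 79 had at least 20 counts summed over both libraries and were compared. Log2 fold changes are CL basal over Ctrl basal, on counts scaled to effective library size, and the interval beside each is the exact (Clopper-Pearson) 95% interval of counting error only. Low counts were more often even than odd, with 68.7% even among values of 1 to 20 in CL basal against 67.9% in Ctrl basal, as they would be if both mates of a read pair were counted, and the intervals are then too narrow.

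Runs of C and T near the annotated start were more frequent in the members than in all genes. RefSeq promoters (GRCm38.p6) were matched for 60 members. A run of at least 8 C or T bases on the sense strand lay within 50 bases on either side of the start in 51 of these 60 (85%), against 39.3% of all 27025 genes with a promoter. The median longest run was 10.5 bases in the members and 7 in all genes. The sense-strand word CTCTTTC was found in the same window in 12 of 60 members (20%) and in 1.62% of all genes. On either strand of the window from 250 bases before to 50 after the start, CCGGAAGT, the core of a binding motif of ETS factors, was found in 12 of 60 members (20%) and in 4.31% of all. AAGATGGC, a YY1 motif, was found in 8.33% of members and 3.19% of all, and TATAAA in 10% and 15.7%. CTCTTTC can lie inside a run of C and T, and a match describes the letters alone. The sequences shown run from 40 bases before to 20 after the annotated start of 6 members, in which capitals mark the longest run of C and T. Rpl27a and Rps18 were among the members lowest in CL basal and Rpl38 and Rpl31 among the highest, while Rpl5 had the most counts of any member and Rps6 lay near 0.
Rpl27a, chr7:109519155-109519214, plus strand: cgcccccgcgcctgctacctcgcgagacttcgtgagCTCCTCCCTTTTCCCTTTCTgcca
Rps18, chr17:33955646-33955705, minus strand: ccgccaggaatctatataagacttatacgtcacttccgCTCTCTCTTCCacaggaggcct
Rpl38, chr11:114668540-114668599, plus strand: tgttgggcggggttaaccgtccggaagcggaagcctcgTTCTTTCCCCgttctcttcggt
Rpl31, chr1:39367811-39367870, plus strand: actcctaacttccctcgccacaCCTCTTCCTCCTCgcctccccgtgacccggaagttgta
Rpl5, chr5:107900488-107900547, plus strand: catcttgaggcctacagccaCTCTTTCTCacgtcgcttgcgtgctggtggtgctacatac
Rps6, chr4:86857348-86857407, minus strand: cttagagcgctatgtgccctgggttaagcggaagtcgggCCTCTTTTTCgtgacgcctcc
The longest runs of Rpl27a, Rps18, Rpl38 and Rps6 spanned the RefSeq start, while those of Rpl31 and Rpl5 lay wholly before it. In the deposited count table Rpl31 starts earlier, at chr1:39367842, and so does Rpl5, at chr5:107900502. By those starts the Rpl31 run reached into the gene and the Rpl5 run lay inside it. The run in Rpl27a was 20 bases long, in Rpl31 13, in Rps18 11, in Rpl38 and Rps6 10 and in Rpl5 9.

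Ribosomal protein mRNAs as a group were found at almost the same level in both libraries. Summed over the 82 members there were 1243896 counts in CL basal against 1268386 in Ctrl basal, which were 3.19% and 3.35% of all counts. The log2 ratio of the scaled sums was −0.031 (−0.035 to −0.028), without Rpl5 it was −0.030, and under upper quartile scaling it was 0.0052. The 10 members with most counts held 42.1% of the sum. The median log2 fold change of the 79 members was −0.024, a fold of 0.984, with an interquartile range of −0.07 to 0.02, and it turned to 0.013 when the libraries were scaled by the upper quartile and was −0.105 with a trend on mean expression removed. It was −0.006 over all 17356 genes tested. In 49 members the value was below 0 and in 30 above, and the number below 0 was 35 under upper quartile scaling, 37 with a trend on exonic length removed, 63 under scaling by total counts and 67 with a trend on mean expression removed.

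**Figure D1:**
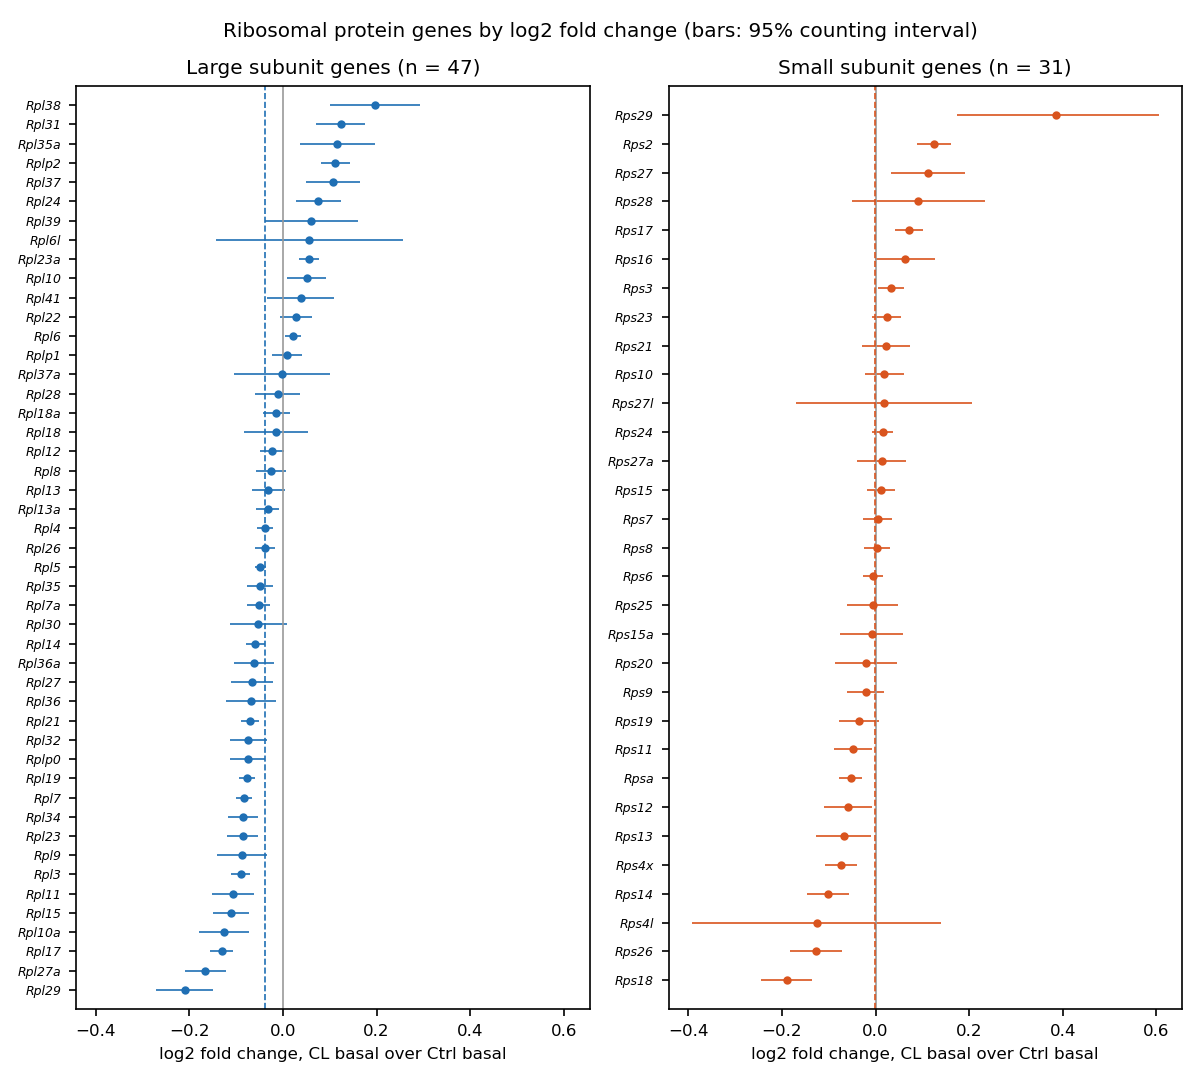
Log2 fold change of 78 ribosomal protein genes compared, CL basal over Ctrl basal on the x axis, one gene per line, with large subunit genes (blue, n = 47) and small subunit genes (orange, 31 drawn) apart. Bars are 95% counting intervals, the grey line marks 0 and dashed lines the medians of all 47 and 32 genes compared, −0.039 for the large and −0.001 for the small subunit; Rps29 and Rpl29 lie farther than 0.2 from 0.

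No member was lower in CL basal by at least 1.2-fold, where 25.9% of all tested genes were, although 2 (Rpl29 at −0.28 and Rps18 at −0.27) passed that fold with a trend on mean expression removed. One member, Rps29, was higher by at least 1.2-fold, against 20.2% of all tested genes, and none of the 79 differed by 1.5-fold in either direction, against 18% of all. These shares of all genes include many with few counts, which scatter more. Among the 1505 tested genes with at least 10000 counts, 5.51% were lower by 1.2-fold, 17.9% higher by 1.2-fold and 2.52% different by 1.5-fold, and of the 59 members in that class none was past any of these folds. The SD of the log2 fold change was 0.07 over those 59 members and 0.24 over the 1505 genes. Of the 79 members, 77 lay within 0.2 of 0 on the log2 scale and 61 within 0.1.

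The members stood lower against genes of like abundance than against all genes. The median of the 59 members with at least 10000 counts was −0.038, with 40 of 59 (67.8%) below 0. Over the 1505 genes of that class the median was 0.09, with 32.6% below 0, and the medians were 0.125 apart. Of those 1505 genes, 25.5% had a value below the members' median. The spread between members was wider than the counting error, with an SD of 0.09 over the 79 members against a median counting standard error of 0.02. The 95% interval lay wholly below 0 in 33 members and wholly above 0 in 14, and in all tested genes each of these held for 25.3%. Abundant genes exclude 0 more often, and of the 1505 genes with at least 10000 counts the interval lay below 0 in 25.6% and above 0 in 59.4%, against 31 and 9 of the 59 members of that class. With all counts halved, to allow for mates counted apart, the intervals of 28 members lay below 0 and of 11 above, against 17.3% and 18.7% of all tested genes.

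**Figure D2:**
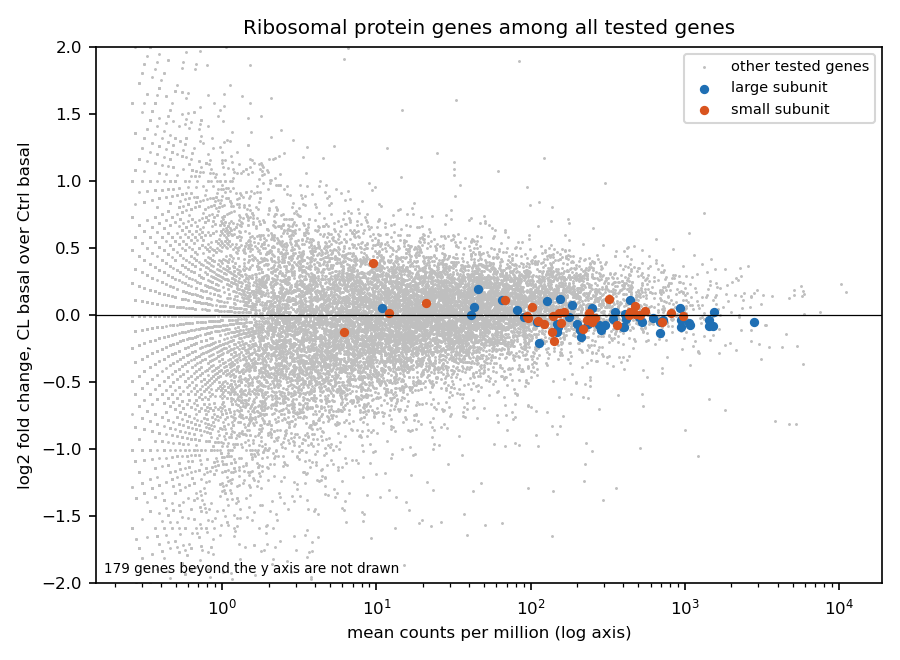
Log2 fold change, CL basal over Ctrl basal, against mean CPM on a log axis for all 17356 tested genes (grey) with the large (blue) and small (orange) subunit genes drawn over them. The ribosomal protein genes form a narrow band near 0 at high abundance; 179 genes beyond 2 on the y axis are not drawn.

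The subunits differed little, with the large subunit genes the lower. The median log2 fold change of the 47 large subunit genes compared was −0.039 (interquartile range −0.08 to 0.02), and that of the 32 small subunit genes was −0.001 (−0.05 to 0.02). Their interquartile ranges overlapped widely. Under upper quartile scaling the large and small subunit medians were −0.002 and 0.035. With a trend on mean expression removed they were −0.120 and −0.078. In the large subunit 33 genes were below 0 and 14 above, and in the small subunit 16 were on either side. Intervals lay wholly below 0 in 25 large and 8 small subunit genes, and wholly above 0 in 9 and 5, beside 25.3% of all tested genes in each direction, and 25.6% below and 59.4% above among those with at least 10000 counts. Among genes with at least 10000 counts, 29 of 37 large subunit genes were below 0, with a median of −0.051, and 11 of 22 small subunit genes, with a median of −0.001. Summed counts of the large subunit were 906195 in CL basal against 930473 in Ctrl basal, a log2 ratio of −0.041 (−0.045 to −0.037). Those of the small subunit were 337701 and 337913, a log2 ratio of −0.004 (−0.011 to 0.003), which included 0. The log2 ratio of the sums of all members was −0.070 under scaling by total counts and 0.0052 under the upper quartile. Whether a subunit's interval included 0 thus rested on the scaling. Genes of one subunit are not replicates, so the difference between the subunits has no test.

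Levels differed far more between members than between libraries. On the scale of CPM (counts scaled to 1000000) per kilobase of exon, the 79 members ranged from 6.23 to 1362 in CL basal and from 6.80 to 1436 in Ctrl basal, a ratio of 215 between the highest and lowest means. The medians were 152 and 158. Large subunit genes had a median level of 172 in CL basal against 175 in Ctrl basal, and small subunit genes of 124 and 122. The summed level of the large subunit was 2.03 times that of the small subunit in CL basal and 2.08 times in Ctrl basal. These sums ran over 50 large and 32 small subunit genes. The large median was only 1.39 times the small median for CL basal and 1.44 times for Ctrl basal. Per kilobase of coding sequence the ratios of the sums were 2.42 and 2.47. The size of the ratio thus rested on the length used and on whether sums or medians were compared. The name rule also left out genes of both subunits, such as Rps3a1, Fau and Rack1 of the small and Rpl36al of the large. Their effect on the ratio was not tested. The proteins are held in the ribosome at nearly equal numbers, while these levels spanned more than 2 orders of magnitude.

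**Figure D3:**
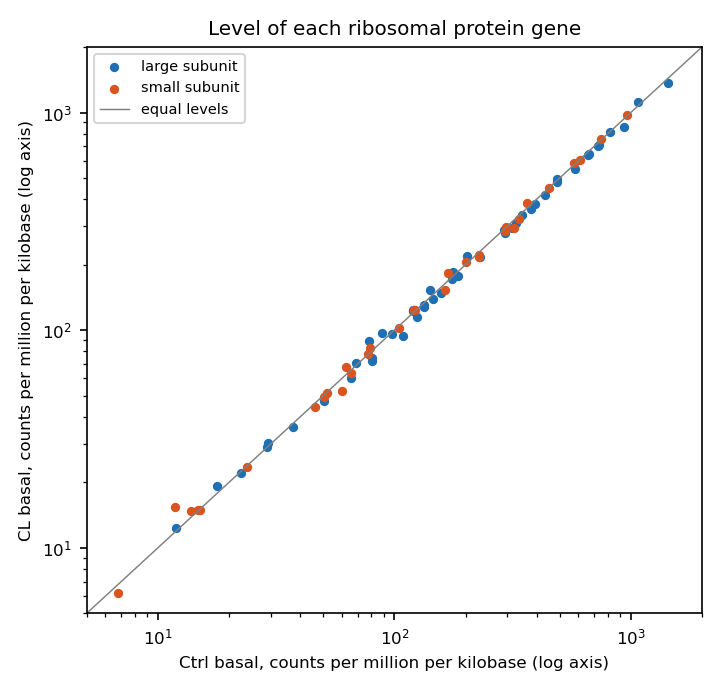
Level of each of the 79 members compared, as CPM per kilobase of exon, in Ctrl basal (x axis) and CL basal (y axis), both log axes, with large subunit genes in blue and small subunit genes in orange. All points lie close to the line of equal levels, from Rps4l at 6.80 and 6.23 to Rpl19 at 1436 and 1362.

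The highest levels per kilobase were those of Rpl19, Rpl23a, Rps24 and Rpl17. Rpl19 (chr11:98026710-98030492, plus strand), a large subunit protein, had 56314 counts in Ctrl basal and 53494 in CL basal, a log2 fold change of −0.08 (−0.09 to −0.06). Rpl23a, which lies at the exit of the peptide tunnel, had 34999 and 36454 counts and 0.06 (0.03 to 0.08), which turned to −0.03 with the trend on mean expression removed. Rps24 differed by less than its counting error, with 30939 and 31337 counts and 0.02 (−0.01 to 0.04). Rpl17, another protein near the tunnel exit, had 27867 and 25503 counts and a value of −0.13 (−0.16 to −0.11), the lowest of the 4. Among the 79 members compared, the lowest levels were those of Rps4l, Rpl6l, Rps29 and Rps28. The annotation (GENCODE M21) lists Rps4l and Rpl6l as pseudogenes and the other 80 members as protein-coding. Rps4l had 246 counts in Ctrl basal and 226 in CL basal (−0.12, −0.39 to 0.14), and Rpl6l had 406 and 423 (0.06, −0.14 to 0.26), so neither differed beyond counting error.

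Among members with at least 1000 counts, those lowest in CL basal were Rpl29, Rps18, Rpl27a, Rpl17, Rpl10a and Rps26. Rpl29 (chr9:106429454-106431568, plus strand), which also binds heparin at the cell surface, had 4689 counts in Ctrl basal and 4063 in CL basal, a log2 fold change of −0.21 (−0.27 to −0.15). Rps18, in the head of the small subunit, had 5757 and 5058 counts, and the log2 fold change was −0.19 (−0.24 to −0.14). Rpl27a had 8600 and 7683 counts, a value of −0.17 (−0.21 to −0.12). All of these stayed inside 1.2-fold, apart from the values of Rpl29 and Rps18 with the trend on mean expression removed. Rpl10a, part of the mobile L1 stalk at the site where spent tRNA leaves, had 5907 and 5421 counts (−0.13, −0.18 to −0.07). Rps26, which lies at the channel where mRNA leaves the small subunit, had 5517 and 5064 counts (−0.13, −0.18 to −0.07). Of the 6 members, 4 were of the large subunit and their intervals all lay below 0.

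At the other end stood Rpl38, Rps2, Rpl31, Rpl35a, Rplp2 and Rps27. Rpl38 (chr11:114668524-114672331, plus strand), known for its part in the translation of Hox mRNAs in the embryo, had 1625 counts in Ctrl basal and 1866 in CL basal, a log2 fold change of 0.20 (0.10 to 0.29), or 1.15-fold. Rps2, at the entry channel of the mRNA, had 11841 and 12935 counts, and the log2 fold change was 0.12 (0.09 to 0.16). Rpl31, near the exit of the peptide tunnel, had 5677 and 6196 counts, a value of 0.12 (0.07 to 0.18). These intervals lay above 0, but with the trend on mean expression removed Rps2 was at 0.04 and Rpl31 at 0.05, and the latter then lay within its counting error of 0. Rpl35a had 2410 and 2618 counts (0.12, 0.04 to 0.20), Rps27, a zinc finger protein, had 2497 and 2706 (0.11, 0.03 to 0.19), and Rplp2 had 16191 and 17532 (0.11, 0.08 to 0.14). With the same trend removed these were at 0.07, 0.06 and 0.03, all within their counting error of 0. Rps29 (chr12:69157722-69159186, minus strand), a small zinc-binding protein that had under 1000 counts, was higher than all of them, with 314 counts in Ctrl basal and 412 in CL basal, a log2 fold change of 0.39 (0.17 to 0.61), or 1.31-fold. It was the one member past 1.2-fold, and the low end of its interval lay inside that fold.

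The members with the shortest coding sequences were those that tended to be higher in CL basal. This grouping was chosen after the values had been seen. Of the 10 compared members whose annotated coding sequence was at most 300 bases without the stop codon, 9 were above 0, with a median log2 fold change of 0.08 and a range of −0.002 to 0.39. The number above 0 was 6 under scaling by total counts, 7 with a trend on mean expression removed and 10 under upper quartile scaling. These were Rpl41, Rpl39, Rps29, Rps28, Rpl38, Rps21, Rps27l, Rps27, Rpl37a and Rpl37, 5 of each subunit, and Rpl37a was the one below 0. Of the 46 members of 300 to 600 bases 15 were above 0, with a median of −0.03, and of the 21 longer members 5 were above 0, with a median of −0.05. Intervals lay wholly above 0 in 4 of the short members (Rps29, Rpl38, Rps27 and Rpl37), beside 25.3% of all tested genes. The short members had a median of 3385.5 counts, and of the 5592 tested genes with 1000 to 9999 counts 2055 had intervals above 0. Rpl37 had 4715 counts in Ctrl basal and 5091 in CL basal (0.11, 0.05 to 0.17). Across the 77 compared members with a coding sequence, log2 coding length and log2 fold change had a Pearson r of −0.42 and a Spearman rho of −0.36, a description over genes that share the same pair of libraries.

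Short members also had the lower levels. The median level per kilobase of coding sequence was 243 CPM in the members of at most 300 bases, 487 in those of 300 to 600 bases and 783 in the longer ones. Rpl41, the shortest at 75 bases, departed from this with a level of 1090 CPM per coding kilobase, while Rps29, at 168 bases, had 56.3. Other genes with a short coding sequence and at least 1000 counts did not stand to one side of 0, with 52 of 99 above it and a median of 0.003. For other genes of 300 to 600 bases it was −0.008, with 287 of 599 above 0. For other genes above 600 bases the median was 0.05, with 3424 of 5799 above 0. The part of RNA length and library preparation in the members' pattern was not tested.

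**Figure D4:**
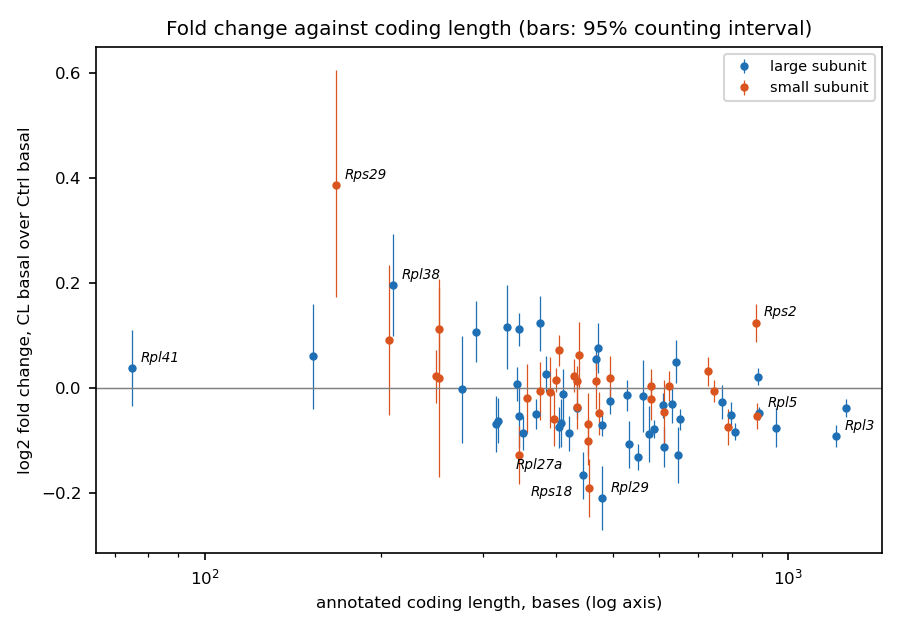
Log2 fold change, CL basal over Ctrl basal, of the 77 compared members with an annotated coding sequence, against coding length in bases on a log axis, with large subunit genes in blue and small subunit genes in orange. Bars are 95% counting intervals; 9 of the 10 members of at most 300 bases lie above 0, and 16 of the 21 members above 600 bases lie below it.

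Members with known roles beyond the core of the ribosome mostly differed by a few percent. The stalk proteins Rplp0, Rplp1 and Rplp2, which recruit the translation factors that use GTP, did not move together. Rplp0, the base of the stalk, had 11865 counts in Ctrl basal and 11282 in CL basal (−0.08, −0.11 to −0.04). Rplp1 had 15564 and 15687 counts (0.01, −0.02 to 0.04), which lay between Rplp0 and Rplp2. Rpl5 (chr5:107900502-107909005, plus strand) and Rpl11, which with an rRNA of the large subunit bind Mdm2 and so stabilize p53 when ribosome assembly fails, both had values below 0, that of Rpl5 changing from −0.05 to −0.01 under upper quartile scaling and to −0.12 with the trend on mean expression removed. Rpl5 had 110355 and 106946 counts, and the log2 fold change was −0.05 (−0.06 to −0.04), and Rpl11 had 8314 and 7736, a log2 fold change of −0.11 (−0.15 to −0.06).

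Rps6, the substrate of the S6 kinases, had 37149 counts in Ctrl basal and 37079 in CL basal (−0.01, −0.03 to 0.01). It was at −0.04 under scaling by total counts and at 0.03 under the upper quartile, both farther from 0 than its counting error. Rps27a, which is made as a fusion with ubiquitin, had 5847 and 5913 counts (0.01, −0.04 to 0.07). Rps19, the gene most often mutated in Diamond-Blackfan anaemia, had 9050 and 8847 (−0.04, −0.08 to 0.01). The intervals of these 3 members included 0 with the main scaling only, since Rps6 moved as given and Rps19 was at −0.07 under scaling by total counts. Rpsa, also known as a laminin receptor, had 27826 and 26877 counts, with a value of −0.05 (−0.08 to −0.03) that came to −0.02 under upper quartile scaling, within its counting error of 0. Rpl10, one of the last proteins to join the large subunit, had 9426 and 9781 counts (0.05, 0.01 to 0.09, and −0.03 with the trend on mean expression removed), and Rpl41 had 3095 and 3184 (0.04, −0.03 to 0.11).

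Several members have a close copy that is used in other tissues or conditions. Rpl3l, the form of heart and skeletal muscle, had 6 counts in Ctrl basal and 3 in CL basal, a log2 ratio with a counting interval of −3.63 to 1.22, while Rpl3 had 37451 and 35243 counts (−0.09, −0.11 to −0.07). Rpl10l and Rpl39l, which are expressed in the testis, had 0 counts in both libraries, which allows up to 3 counts or 0.078 CPM in each. Their partners Rpl10 and Rpl39 were well expressed, the latter with 1604 and 1676 counts (0.06, −0.04 to 0.16). Rps27l, a target of p53, was expressed at 462 counts in Ctrl basal and 469 in CL basal (0.02, −0.17 to 0.21), well under Rps27. Rps4x had 14325 and 13637 counts (−0.07, −0.11 to −0.04) beside the low Rps4l, and Rpl6 had 58625 and 59632 (0.02, 0.00 to 0.04, and −0.02 under scaling by total counts) beside the low Rpl6l. In each of these pairs the form named without the l, or Rps4x, held most of the counts.

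Reads of these genes are hard to assign, since the genome holds many copies of them. Of the 80 members with an annotated protein-coding transcript, 77 shared at least one stretch of 50 bases of their principal transcript with a transcript of another gene. The median share of such 50-base words was 49.3%, and 39 members shared more than 50% of theirs. Shared words were most frequent in Rps27 (98.6%), Rpl35 (95.1%), Rpl5 (93.8%) and Rpl9 (93.3%). Both strands were searched, so genes that overlap a member at its own place, such as Wdr38 with Rpl35, can add to these shares beside copies elsewhere. Rows named as pseudogenes of a member (275 rows, of which 156 had counts) held 24878 counts in Ctrl basal and 23316 in CL basal, a log2 ratio of −0.097 (−0.122 to −0.071). This was farther below 0 than the ratio of the summed members. Rpl14-ps1 had the most, with 6853 and 6207 counts. Pseudogene rows held 14.1% of the joint counts for Rps13, 13.7% for Rpl14, 10.1% for Rpl21 and 9.9% for Rps6. Members with many shared words did not stand far from the others, since the 25 with the highest shares (71.3% to 98.6%) had a median log2 fold change of −0.050, the middle 26 of −0.007 and the 26 with the lowest of −0.020. How the counting treated reads with several matches is not given in the sources used here.

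Some members also overlap other genes on the genome. Exons of 35 members overlapped those of another row of the table, in 52 pairs, of which 18 were on opposite strands. Flt3l, which shares 621 of the 2114 exonic bases of Rpl13a, had 27717 counts in Ctrl basal and 27102 in CL basal, and Rpl13a had 28072 and 27494. Its counts were 98.7% and 98.6% of those of Rpl13a. Tlcd1, on the strand opposite to Rpl23a, had 16422 and 16098 counts, and Wdr38, opposite to Rpl35, had 13209 and 12874. Gm28037 had 7040 and 7469 counts beside 6963 and 7353 for Rpl24. Flt3l and Gm28037 lie on the same strand as Rpl13a and Rpl24. The values of such members are uncertain, on the same strand because the shared exons belong to both genes, and on opposite strands because the use of strand in the counting was not stated. Inside 29 members lie 56 annotated snoRNA genes on the same strand, small RNAs that guide changes to rRNA. The 44 compared members with no such exonic overlap had a median log2 fold change of −0.024, and their summed counts a log2 ratio of −0.037.

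Ribosomal proteins with other symbols were looked up from a list. Of 11 symbols 9 were found, and their median log2 fold change was −0.026. Rack1, a scaffold protein on the small subunit, had 8836 counts in Ctrl basal and 8501 in CL basal (−0.06). Fau, a fusion of a ubiquitin-like protein with a small subunit protein, had 10109 and 10915 (0.11). Rps3a1 had 31656 and 31151 counts (−0.03), so these members of the ribosome stayed within the range of the genes above. Of the copies on this list, Rpl22l1 was at 390 and 302 counts (−0.37, −0.59 to −0.15), Rpl36al at 4435 and 3726 (−0.25) and Rps27rt at 168 and 210 (0.32, 0.02 to 0.62). Rpl22, the partner of Rpl22l1, had 13394 and 13680 counts (0.03, −0.01 to 0.06). The related Rpl7l1 was at 0.09 and Rps19bp1, which binds Rps19, at 0.07.

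Genes that build ribosomes had a higher median than the ribosomal protein genes. Of 53 ribosome biogenesis genes compared, 8 were below 0 in CL basal and the median log2 fold change was 0.15, where 490 of the 1505 genes with at least 10000 counts were below 0 with a median of 0.09. By at least 1.2-fold 11 (20.8%) were higher, a share near the 20.2% of all tested genes, and none was lower, against 25.9% of all. Nop2, an rRNA methyltransferase, had a log2 fold change of 0.38 (0.34 to 0.41), and Utp15, of the small subunit processome, of 0.39 (0.28 to 0.51), while Polr1d was at −0.10 and Efl1 at −0.06. Their summed counts were 831299 in Ctrl basal and 944768 in CL basal, of which Ncl alone held 401818 and 454672. The 27 translation initiation factors had a median of 0.09, with 1 lower by 1.2-fold (Eif3m, −0.30) and none higher, and Eif4e, the cap-binding protein, was at 0.21. The 18 elongation factors and other TOP mRNAs, which share the pyrimidine tract, had a median of 0.02. Eif3f (−0.27) was the one past 1.2-fold among these, and Eef1b2 was at −0.18, Pabpc1 at 0.15 and Npm1 at 0.17. The 78 genes for proteins of the mitochondrial ribosome (Mrpl and Mrps), a list added after the values were seen, had a median of −0.06 with 52 below 0. Of them 15 (19.2%) were lower by 1.2-fold and 5 (6.41%) higher, both under the shares of all tested genes (25.9% and 20.2%). Their values ran from −0.72 to 0.57, against −0.21 to 0.39 for the cytosolic members, which had more counts per gene.

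**Figure D5:**
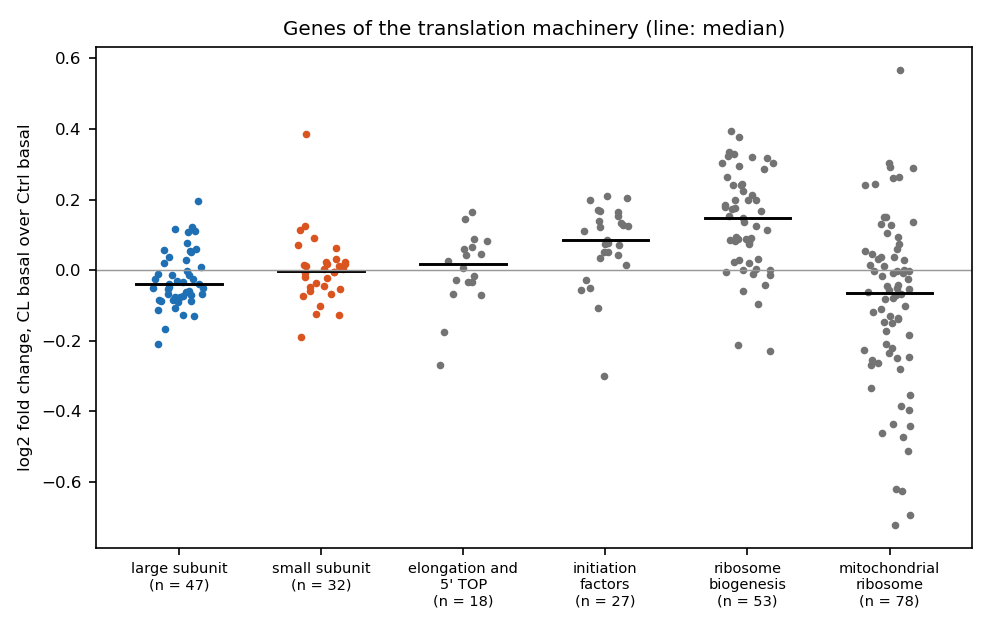
Log2 fold change, CL basal over Ctrl basal, of single genes (points) in 6 groups of the translation machinery, with the median of each group as a line and the number of genes compared under each name. Medians run from −0.06 for the mitochondrial ribosome through −0.04 and −0.001 for the large and small subunits to 0.15 for ribosome biogenesis; points are spread sideways only to be seen.

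The sorted cells carried basal markers, with 774052 counts over 12 basal genes in Ctrl basal and 810283 in CL basal, among them Krt14 at 210758 and 232845. Of the 12 genes 4 were lower in CL basal, with log2 fold changes of −0.23 for Krt5, −0.51 for Itgb4, −0.13 for Oxtr and −0.03 for Acta2. Luminal markers differed between the libraries, since all 12 were lower in CL basal, with a median log2 fold change of −0.86 and summed levels of 5329 CPM in Ctrl basal and 3295 in CL basal. Macrophage markers were low in both libraries, with 1485 and 1124 counts over 12 genes, of which 9 were compared, and Fcgr1 was at 0 in Ctrl basal. Of the 9 compared, 7 were below 0, with a median log2 fold change of −0.33. Cd14 held the largest part of both sums, with 748 counts in Ctrl basal and 468 in CL basal. Mpeg1, at 28 and 88, and Csf1r, at 64 and 89, were higher in CL basal. Fibroblast markers had 9542 and 7840 counts, endothelial markers 15186 and 12089, adipocyte markers 4777 and 3543 (of which Fabp4, also a gene of capillary endothelium, held 4648 and 3465, while Adipoq had 5 and 10), lymphoid markers 705 and 675 and skeletal muscle markers 281 and 85. The part of these other cells in the values of the ribosomal protein genes was not tested. By the paper's methods, the sort excluded white blood cells, vascular endothelial cells and red blood cells by surface markers. In RNA from many cells, fewer cells of a type and less RNA per cell cannot be told apart.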

How the data were processed

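RNA of sorted mammary basal cells was sequenced in 1 library per group (SMARTER mRNA-Seq kit, HiSeq X 10). The authors deposited raw counts of reads for each gene over its exons, without normalization; per the submitters' processing notes the build was GRCm38 (mm10). The aligner, the use of strand and the treatment of reads with several matches are not given in the sources used here. A deposited log2 ratio was not used.

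Counts were scaled by TMM in edgeR 4.0.16 (R 4.3.3), which was used for scaling only, since 1 library per group allows no test. Log2 fold changes used a prior count of 2, and a gene was compared when both libraries together held 20 counts or more. Exact (Clopper-Pearson) 95% intervals were computed in scipy 1.17.1 (Python 3.11.15), and the computation was tested on simulated data. Coding lengths and transcripts came from GENCODE M21, exonic overlaps from the exon coordinates of the deposited count table, and promoters from RefSeq.

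Members, lists and groupings were chosen with earlier results of these data known. Named genes were the 6 members at each end of fold change with at least 1000 counts, the 4 at each end of level, pairs of related symbols, members with known extra roles, and the 2 genes at each end of each pathway list with at least 1000 counts. Others (Rpl37, Rpl22, Rpl9, the overlapping genes and the markers named) were chosen after their values were seen. Protein identities were not used here, and some genes are counted but not reported by name.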

Additional observations from a re-analysis of the deposited data

How the results depend on the processing

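No paired analysis was possible because there was 1 library per group. Scaling by total counts, DESeq2 1.42.0 size factors or the upper quartile, prior counts of 0.5 or 5, no filter or at least 100 or 1000 counts, halved counts, added pseudogene rows and removal of a trend on mean expression or exonic length were tried. The median of all members ran from −0.105 (trend on mean expression removed) to 0.013 (upper quartile), and was 0.006 with the trend on exonic length removed, so its sign rested on these choices; the large minus small difference ran only from −0.043 to −0.036 under these. With the trend on mean expression removed, the large median was −0.120, the small −0.078 and 2 members were lower by 1.2-fold. Under total counts the large median was −0.078 and the summed log2 ratio −0.070; under the upper quartile that ratio was 0.0052. Without a filter 1 member (Rpl3l) was lower by 1.2-fold and also past 1.5-fold; at 1000 counts 0 were higher, since Rps29 was not compared. Added after seeing the data, members with no exonic overlap gave a summed ratio of −0.037 and a large minus small difference of −0.060, and coding length gave large to small ratios of 2.42 (CL basal) and 2.47 (Ctrl basal). Of 404 values of 34 named members, 342 stayed inside the counting interval, 62 left it and 16 changed sign, none of them for Rps29, the member past 1.2-fold. Depth limits members under about 1000 counts, and the lack of replicates limits all.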

Other observations

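Of 19 genes of the mTORC1 pathway and regulators of ribosome synthesis compared, 2 (10.5%) were lower and 3 (15.8%) higher in CL basal by at least 1.2-fold, both under the 25.9% and 20.2% of all tested genes, with a median log2 fold change of 0.05. Maf1, a repressor of RNA polymerase III, was at −0.40 and Tsc2, an inhibitor of mTORC1, at −0.39, while Ddit4, a stress-induced inhibitor of mTORC1, was at 0.59 (0.50 to 0.68) and Max at 0.46.

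Of 14 p53 targets, 4 (28.6%) were lower by 1.2-fold, a share near the 25.9% of all tested genes, and 1 was higher, against 20.2% of all, with a median of −0.16. Bax, which promotes cell death, was at −0.50 and Aen at −0.29, while Mdm2, the ligase to which Rpl5 and Rpl11 bind, was at 0.32 and Cdkn1a, an inhibitor of the cell cycle, at 0.14.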
